A study of Capra hircus with 8 samples.

Results

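The proteasome is the large protease that degrades proteins tagged with ubiquitin. Its genes were taken from the messenger RNA table of goat (Capra hircus) embryos by name, as every entry starting with PSMA, PSMB, PSMC, PSMD, PSME, PSMF or PSMG plus ADRM1. This gave 49 of 22107 entries. Of these, 48 encode proteasome subunits, dedicated assembly factors or regulators, and 1, PSMC3IP, is taken in by its name alone and encodes a meiotic recombination factor. PSMB11, the thymic catalytic subunit, is not among the entries analysed here.

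The table holds 4 libraries of embryos at the 8-cell stage, 2 from in vitro fertilisation (IVF) and 2 from somatic cell nuclear transfer (SCNT), where an egg develops with a nucleus taken from a body cell. Embryos were lysed whole, and polyadenylated RNA was made into Smart-seq2 libraries. The labels name no breed, donor cell type, oocyte source or number of embryos per library, and do not say whether replicates were separate cultures, so that p-values measure the spread between these libraries alone. Libraries of 4-cell embryos in the same series have no messenger RNA values analysed here. In bulk libraries like these, fewer cells holding a transcript and less of it per cell cannot be told apart.

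A barrel of alpha and beta rings forms the core particle, and its 3 catalytic beta subunits face the inside. The regulatory particle sits on the barrel's ends: a base with a ring of 6 ATPases unfolds the substrate, ubiquitin receptors catch it and a lid removes the ubiquitin. Other members assist assembly, open the barrel without ubiquitin (activators) or replace the catalytic subunits in immune cells (inducible subunits). In early embryos, the proteasome degrades proteins laid down in the egg.

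Values are FPKM, fragments per kilobase of gene and per 1000000 fragments, so levels can be set side by side between genes. The total behind each library, recovered from the steps between low FPKM values, lay between 27.5 and 30.3 M reads (M, 1000000). All 49 members came to whole reads in the 4 libraries. Of these, 41 had at least 30 reads in every library and 8 fell under 30 in at least 1. The read numbers given here are the smallest whole numbers that produce the values, and PCR copies are counted in them. Differences are in log2(FPKM + 1), SCNT minus IVF, from limma over all 10303 genes that reached 1 FPKM in at least 2 libraries, with Benjamini-Hochberg adjusted p-values and a threshold of 0.05. The pseudocount of 1 makes the difference smaller than the ratio for genes at low level. Of the 49 members, 46 were tested; PSMA8, PSMB10 and PSMC3 were too low.

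The embryo identity of the libraries was checked with oocyte genes. GDF9 stood at 404 FPKM or more and BMP15 at 460.2 FPKM or more in all 4. NLRP5 was low, at 0.2 and 0.786 FPKM in IVF and at 2.58 and 4.3 FPKM in SCNT, and entered the test only through SCNT. Of the 8 genes listed, OOEP and H1FOO were not found by these names. The sum of the 6 oocyte and early embryo genes in the table was 1199 and 1077 FPKM in IVF, against 2272 and 3228 FPKM in SCNT. Of those 6 genes, 2 rose in SCNT (ZAR1L and KHDC3L, 33.3%, all genes 3.02%) and 4 did not pass. The sum of 6 cumulus genes was 19.8 to 31.3 FPKM, most of it from HAS2, at 17.9 to 29.4 FPKM. CYP19A1 was at 0.974 to 2.53 FPKM, and FSHR and AMH were at 0 in every library. The 2 blood genes in the table, PTPRC and CD68, summed to 0.211 to 1.47 FPKM. In 5 of the 6 oocyte genes (83.3%, all genes 46.9%) the SCNT libraries were the highest pair. In ZAR1 they were the lowest pair (1.45 and 1.73 against 1.31 and 1.29 FPKM). The part of these genes in the results was not tested.

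Proteasome transcripts were unequal in abundance in every library. The core particle genes PSMA5 and PSMA4, both alpha ring subunits, stood far above the others. PSMA4 was at 591 and 627 FPKM in IVF replicates 1 and 2 and at 604 and 302 FPKM in SCNT replicates 1 and 2. PSMA5 was at 371 and 358 FPKM in IVF and at 583 and 1173 FPKM in SCNT. Together they held 48.3% and 47.9% of the summed FPKM of the members in IVF and 46.7% and 38.5% in SCNT. PSMA4 ranked 83 and 68 among all entries in the IVF libraries, and PSMA5 ranked 31 in SCNT replicate 2. PSMB2 was the next core subunit by level in IVF, at 124 and 139 FPKM.

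Other subunits that occupy the same barrel lay near 1 FPKM. PSMB6, the catalytic subunit with caspase-like activity, was at 0.943 and 0.155 FPKM in IVF and at 1.20 and 1.86 FPKM in SCNT, from 22, 4, 29 and 45 reads. PSMB3, a beta ring subunit without catalytic activity, was at 1.82 and 0.593 FPKM in IVF and at 1.95 and 3.65 FPKM in SCNT. The highest of the 14 constitutive core genes exceeded the lowest by 626 and 4035 times in IVF and by 502 and 631 times in SCNT, with PSMB6 the lowest in each library. The 4035 rests on the 4 reads of PSMB6 in IVF replicate 2.

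The regulatory particle was also uneven. PSMD14, the lid enzyme that cuts ubiquitin chains off the substrate, was its highest gene by the mean of the 4 libraries, at 124 and 106 FPKM in IVF and at 152 and 248 FPKM in SCNT. PSMC3, an ATPase of the base ring, was at 0.326 and 0.0211 FPKM in IVF and at 0.722 and 3.12 FPKM in SCNT, from 14, 1, 32 and 139 reads. Both SCNT values of PSMC3 lay above both IVF values, but with a single library above 1 FPKM it was not tested. The ATPase ring spanned 73.9 and 1464 times between its highest and lowest gene in IVF, and 85.7 and 51.0 times in SCNT. The 1464 rests on the single PSMC3 read in IVF replicate 2.

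The order of the members by level was alike between libraries. Across the 46 tested members, Spearman's rho was 0.94 between the IVF libraries and 0.93 between the SCNT libraries, against 0.95 and 0.88 across all tested genes. Between an IVF and an SCNT library it ran from 0.79 to 0.94. Genes are not independent replicates, and each pair of values shares the length of the gene, so these coefficients are descriptions.

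**Figure D1:**
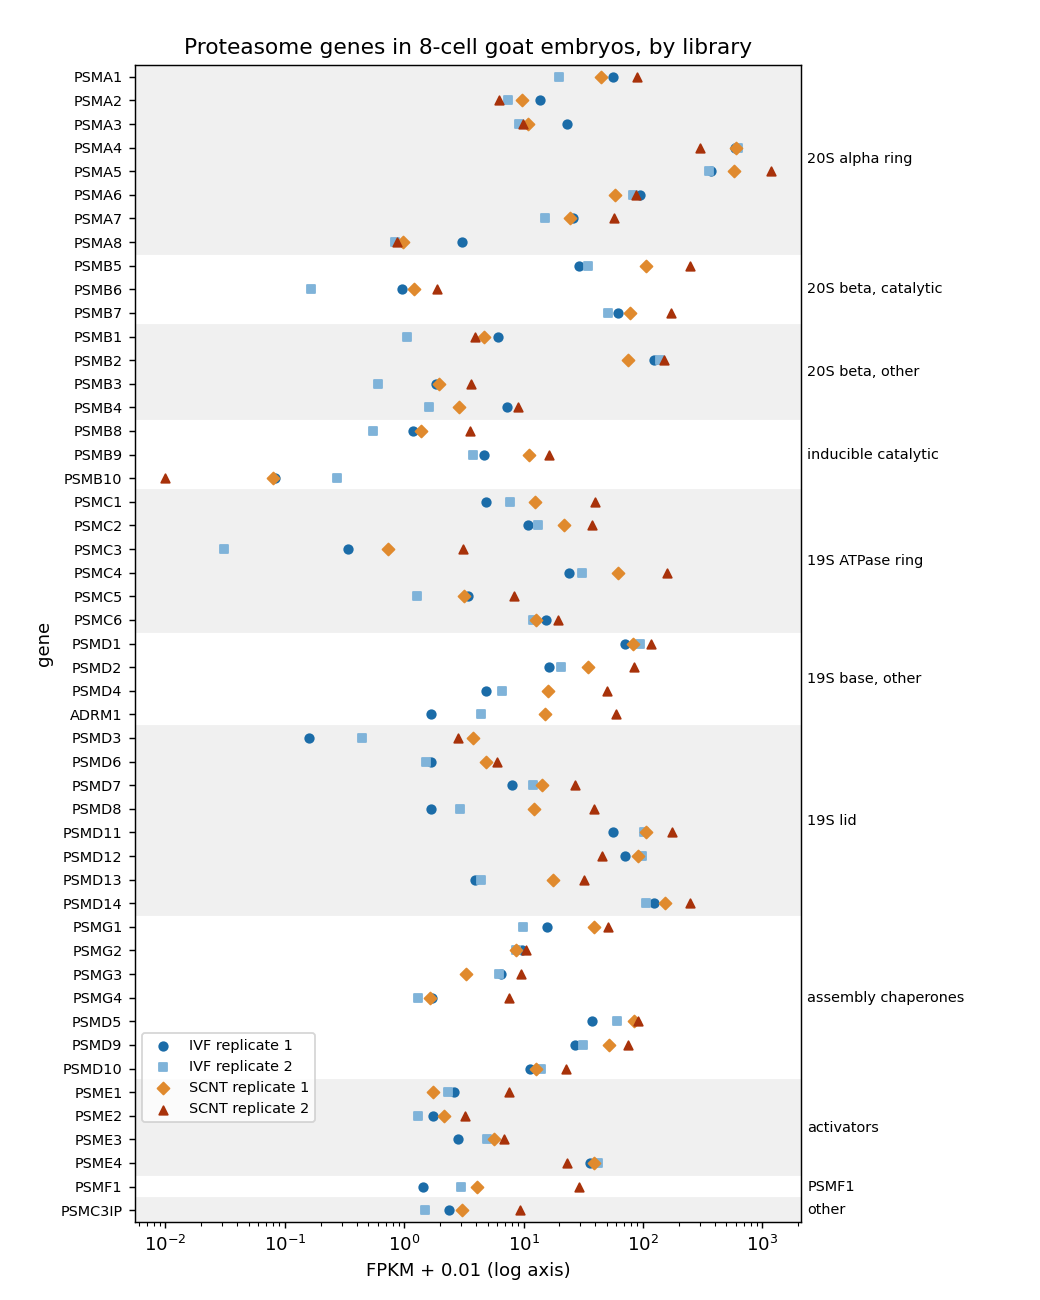
FPKM of the 49 members in each of the 4 libraries (log axis, 0.01 added so that the 0 of PSMB10 in SCNT replicate 2 can be drawn at the left edge); rows are genes, shaded by role. PSMA4 and PSMA5 lie between 302 and 1173 FPKM, while PSMB6 lies between 0.155 and 1.86 FPKM.

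The comparison of SCNT with IVF embryos asked how transcripts of 8-cell embryos made by nuclear transfer depart from those of fertilised ones. The members that rose in SCNT were the lid genes PSMD8, PSMD13 and PSMD3, the ubiquitin receptor gene ADRM1 and the catalytic core gene PSMB5. They are 5 of 46 tested members (10.9%), where 3.02% of all genes tested were called higher. PSMD3, under 1 FPKM in both IVF libraries, entered the test only through the SCNT libraries. By limma 0 members were called lower, where 0.844% of all genes were, and 3.86% of all genes were called in either direction. The other 41 members did not pass. At an unadjusted p under 0.05, 16 members were higher and 0 lower, against 25.4% and 5.63% of all genes.

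The median log2 difference was 0.88 over the members and 0.39 over all genes. A positive difference was found in 38 of 46 members (82.6%), against 65.8% of all genes. Both SCNT libraries lay above both IVF libraries in 27 members (58.7%), against 46.9% of all genes, and below them in 0, against 17.1%. Scaling moved the median of all genes, to −0.10 after centring each library on its median, −0.01 after quantile normalization and 0.44 after rescaling to a total of 1000000. The median of the members lay above it by 0.48, 0.60 and 0.56 in these 3, and by 0.48 as deposited. Leaving out single libraries moved this gap, to 0.15 without SCNT replicate 2, 0.82 without SCNT replicate 1, 0.71 without IVF replicate 1 and 0.34 without IVF replicate 2.

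The calls changed with the scaling and with single libraries. PSMD8 kept its call after median centring, and the other 4 lost theirs; after quantile normalization all 5 lost it. Higher calls numbered 1 member after median centring (1.53% of all genes), 0 after quantile normalization (1.17%), 8 after rescaling (11.0%), 2 without the variance trend (2.05%) and 0 with no filter on low values (0.0%). Without IVF replicate 1 they numbered 0 (1.02%), without IVF replicate 2 they numbered 2 (1.5%), and without SCNT replicate 2 they numbered 0 (0.126%). Without SCNT replicate 1, where the spread comes from the IVF pair alone, 23 members were higher (27.7%) and 1, PSMA4, was lower (9.49%). With the replicate number as a block, 13 were higher (15.9%). Calls gained by rescaling were PSMC4, PSMD4 and PSMG1, and the block added PSMB9, PSMC1, PSMD2, PSMD6 and PSMF1 to these.

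**Figure D2:**
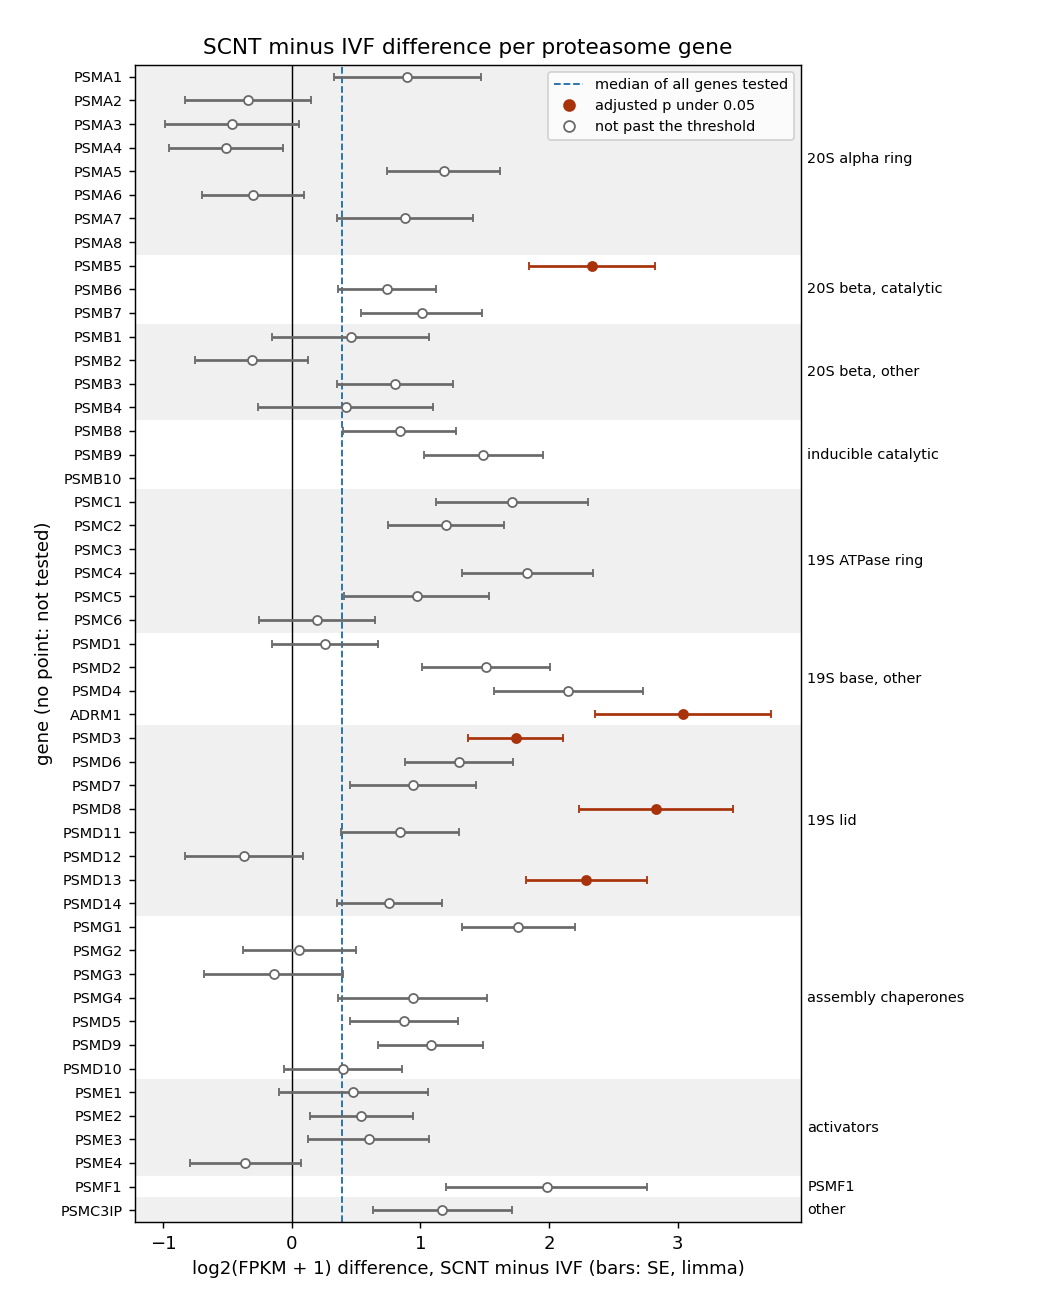
Log2(FPKM + 1) difference, SCNT minus IVF, of each tested member with its standard error from limma; filled points passed the threshold, and the dashed line is the median of all tested genes, 0.39. The 5 filled points are PSMB5, ADRM1, PSMD3, PSMD8 and PSMD13, and 8 members lie below 0.

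Among the catalytic subunits, PSMB5, which cuts after hydrophobic residues, was at 29.1 and 34.4 FPKM in IVF and at 106 and 250.1 FPKM in SCNT. The groups did not overlap, and the SCNT libraries differed from each other more than the IVF libraries did. Its log2 difference was 2.33 ± 0.49 (SE), with a limma adjusted p of 0.0445. PSMB7, which cuts after basic residues, was at 62.2 and 51.4 FPKM in IVF and at 77.3 and 170.3 FPKM in SCNT. Both SCNT values were the higher ones here too, and the difference of 1.01 ± 0.47 did not pass (adjusted p = 0.183). PSMB6 differed by 0.74 ± 0.38 (0.220), again without overlap. So all 3 constitutive catalytic genes had higher values in both SCNT libraries, where 46.9% of all genes did. Of the 3, 1 passed, where 3.02% of all genes were called higher. PSMB6 was under 1 FPKM in both IVF libraries and entered the test only through SCNT, so the filter favoured its direction.

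The alpha ring forms the gate of the barrel. Of its 7 tested genes, 0 passed (3.86% of all genes did), 3 had a positive and 4 a negative difference, and the median was −0.30. Its summed FPKM, to which PSMA4 and PSMA5 contribute most, was 1179 and 1121 in IVF and 1336 and 1728 in SCNT, without overlap. PSMA5 had the largest difference, 1.18 ± 0.44 (adjusted p = 0.118), with both SCNT values above both IVF values. PSMA4 had the smallest, −0.51 ± 0.44 (0.459): its first SCNT library lay between the IVF libraries, and its second was the lowest of the 4. The ratio of PSMA5 to PSMA4 was 0.628 and 0.571 in IVF and 0.965 and 3.88 in SCNT; in the last library PSMA5 had taken the place of PSMA4 as the most abundant proteasome transcript.

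The remaining alpha genes overlapped between groups. PSMA1 (0.90) and PSMA7 (0.88) had positive log2 differences, and PSMA2 (−0.34), PSMA3 (−0.46) and PSMA6 (−0.30) negative ones. Adjusted p-values of these 5 ran from 0.281 to 0.673. PSMA8, a variant of PSMA7 known from mouse testis, was at 3.04 and 0.833 FPKM in IVF and at 0.971 and 0.860 FPKM in SCNT, from 109, 33, 36 and 32 reads.

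Of the 4 beta subunits without catalytic activity, 0 passed (3.86% of all genes did). PSMB3 had the largest log2 difference, 0.80 ± 0.45 (adjusted p = 0.256), and PSMB2 the smallest, −0.31 ± 0.44 (0.665). PSMB2 was at 75.1 and 149 FPKM in SCNT, which enclosed both IVF values. PSMB1 was at 6.14 and 1.04 FPKM in IVF and PSMB4 at 7.30 and 1.60 FPKM. For both genes the IVF pair differed more than the SCNT and IVF means did.

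The inducible subunits replace the constitutive catalytic ones in immune cells. PSMB8, the counterpart of PSMB5, was at 1.18 and 0.534 FPKM in IVF and at 1.36 and 3.55 FPKM in SCNT. PSMB9, the counterpart of PSMB6, was at 4.62 and 3.79 FPKM in IVF and at 11.2 and 16.4 FPKM in SCNT. Neither gene overlapped between groups, where 46.9% of all genes had both SCNT values above both IVF values. The log2 differences were 0.84 ± 0.44 for PSMB8 (adjusted p = 0.227) and 1.49 ± 0.46 for PSMB9 (0.0792). PSMB8 was below PSMB5 in every library, while PSMB9 exceeded PSMB6 in every library. PSMB10, the counterpart of PSMB7, rested on 1 and 4 reads in IVF and 1 and 0 in SCNT; the 0 allows up to 0.210 FPKM (3 reads, counting error only).

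The summed FPKM of PSMB8, PSMB9 and PSMB10 was 0.0637 and 0.0534 of that of PSMB5, PSMB6 and PSMB7 in IVF, and 0.0683 and 0.0472 in SCNT. These ratios overlapped, with p = 1.0 in an exact two-sided permutation test over the 4 libraries; with 2 against 2 the smallest p is 0.333. Inducible subunits respond to interferon in somatic cells. Of 5 interferon response genes, 0 passed (3.86% of all genes did). IRF1 (0.341 ± 0.338 in IVF and 3.85 ± 2.71 FPKM in SCNT, SD, n = 2) was higher in both SCNT libraries. With both IVF values under 1 FPKM, IRF1 entered the test only through SCNT. B2M (172 ± 72.2 and 53.2 ± 7.11 FPKM) was lower in both SCNT libraries, and TAP1 and NLRC5 overlapped. Limma's adjusted p was 0.065 for IRF1 and 0.0648 for B2M. Both passed after rescaling (0.0279 and 0.0423), with the replicate block (0.0244 and 0.0371) and without SCNT replicate 1 (0.0158 and 0.0455), and B2M also after median centring (0.0386). Over all alternatives the p ran from 0.0158 to 0.251 for IRF1 and from 0.0371 to 0.583 for B2M.

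In the regulatory particle, the ATPase ring had 0 of 5 tested genes past the threshold, where 3.86% of all genes passed. All 5 had a positive difference, as did 65.8% of all genes, and the median was 1.20 (all genes 0.39). PSMC4 had the largest: 24.1 and 30.9 FPKM in IVF against 61.8 and 159 FPKM in SCNT, a log2 difference of 1.83 ± 0.51 (adjusted p = 0.0671). PSMC1 differed by 1.71 ± 0.59 (0.0999) and PSMC2 by 1.20 ± 0.45 (0.119). These 3 did not overlap between groups, where 46.9% of all genes had both SCNT values above both IVF values. PSMC5 (0.97) and PSMC6 (0.20) did overlap. PSMC6, the smallest difference of the ring, was at 15.5 and 12 FPKM in IVF and at 12.7 and 19.6 FPKM in SCNT.

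Among base subunits that are not ATPases, ADRM1, a ubiquitin receptor that also docks the deubiquitinase UCHL5, was at 1.67 and 4.41 FPKM in IVF and at 15.2 and 59.1 FPKM in SCNT. Every SCNT value was above every IVF value, and the log2 difference of 3.04 ± 0.68, the largest of the 46 members, had an adjusted p of 0.0496. PSMD4, another ubiquitin receptor, was at 4.82 and 6.64 FPKM in IVF and at 16.1 and 49.9 FPKM in SCNT; its difference of 2.15 ± 0.58 did not pass (0.0644). The scaffold gene PSMD2 differed by 1.51 ± 0.50 (0.0932). PSMD1, the other scaffold gene, was at 71.2 and 94.0 FPKM in IVF and at 82.4 and 117 FPKM in SCNT and overlapped between groups (0.26 ± 0.41, 0.692). Of the 49 members, 9 overlap another annotated gene in the goat RefSeq table, and no strand information is given that would tell such reads apart. They are ADRM1 (with LOC108637403), PSMD1 (HTR2B and LOC102178404), PSMC1 (NRDE2), PSMD5 (LOC102182036), PSME1 (EMC9), PSMA8 (SS18), PSMC3IP (MLX), and PSMD9 and PSME3 (a transfer RNA gene each).

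The lid held 3 of the 5 calls, from 8 tested genes, where 3.02% of all genes were called higher. PSMD8 was at 1.67 and 2.92 FPKM in IVF and at 12.3 and 39.1 FPKM in SCNT (log2 difference 2.83 ± 0.60, adjusted p = 0.0449). PSMD13 was at 3.91 and 4.36 FPKM in IVF and at 17.8 and 32.3 FPKM in SCNT (2.29 ± 0.47, 0.0445). PSMD3 was at 0.150 and 0.437 FPKM in IVF and at 3.78 and 2.84 FPKM in SCNT (1.74 ± 0.37, 0.0449), from 9 and 29 reads against 235 and 177. Being under 1 FPKM in both IVF libraries, PSMD3 entered the test only through SCNT, so the filter favoured a higher value there. All 3 are structural subunits of the lid and separated the groups fully, and PSMD3 was the only one of the 5 called genes that was lower in the second SCNT library than in the first.

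The other lid genes did not pass. PSMD6 (1.30), PSMD7 (0.94), PSMD11 (0.84) and PSMD14 (0.76) had positive log2 differences without overlap, with adjusted p from 0.0859 to 0.247. Both SCNT libraries lay above both IVF libraries in 7 of the 8 lid genes, PSMD3 included, where 46.9% of all genes did so. PSMD12 was the exception to the direction: it was at 71.0 and 97.5 FPKM in IVF and at 90.8 and 45.3 FPKM in SCNT (−0.37 ± 0.46, 0.614). Its first SCNT library lay between the IVF libraries, as for PSMA4, and its second was the lowest of the 4.

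Core and regulatory particle genes are set side by side as 14 and 18 genes. Of 17 regulatory particle genes tested, 4 passed (23.5%) and 13 (76.5%) had both SCNT values above both IVF values, with a median log2 difference of 1.30. Of 14 core genes, 1 passed (7.14%) and 5 (35.7%) separated in that way, with a median of 0.60. Of all genes, 3.02% were called higher and 46.9% separated so. These counts include PSMD3 and PSMB6, which entered the test only through SCNT. The summed FPKM of the core genes was 1407 and 1348 in IVF and 1604 and 2314 in SCNT, and that of the regulatory particle 419.8 and 519 in IVF and 664 and 1155 in SCNT. The ratio of core to regulatory sum was 3.35 and 2.60 in IVF and 2.41 and 2.0 in SCNT. The groups did not overlap, and p was 0.333 in the exact permutation test, the smallest that 2 against 2 can give. The separation rested on PSMA4: without PSMA4 and PSMD14, an alternative chosen after seeing the data, the ratio was 2.76 and 1.75 in IVF and 1.95 and 2.22 in SCNT, and the groups overlapped (log2 difference −0.08, p = 1.0, exact permutation test). Without PSMA5 and PSMD14, the highest of each particle by the mean of the 4 libraries, it was 3.50 and 2.40 in IVF and 1.99 and 1.26 in SCNT. Taken from the medians in place of the sums, the ratio was 4.31 and 1.79 in IVF and 2.21 and 1.85 in SCNT, and the groups overlapped.

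**Figure D3:**
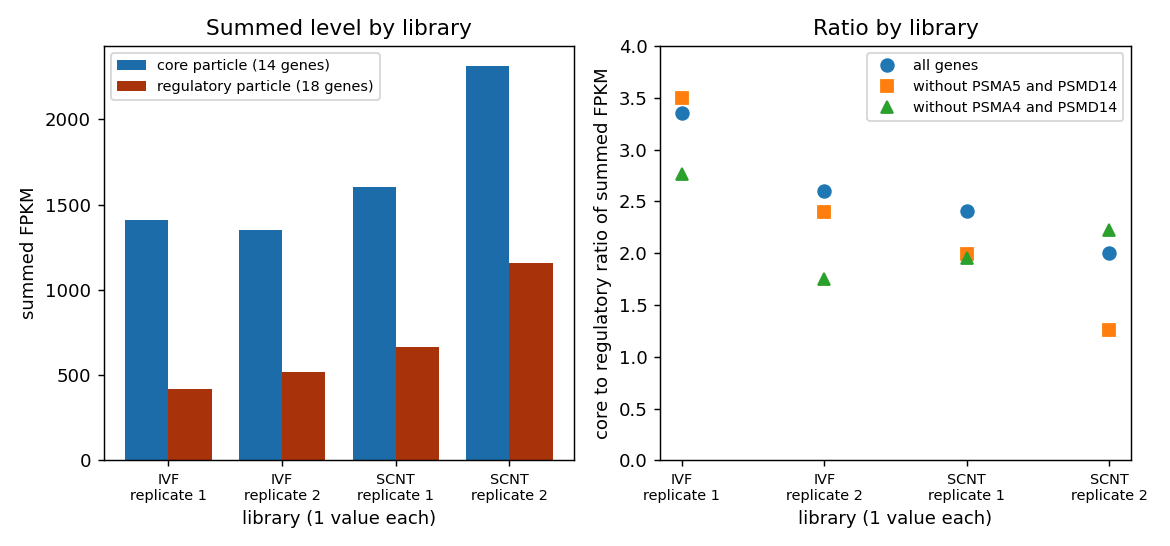
Left, summed FPKM of the 14 core and 18 regulatory particle genes in each library (bars from 0, 1 value per library). Right, the ratio of the sums, which was 3.35 and 2.60 in IVF and 2.41 and 2.0 in SCNT, with the same ratio without PSMD14 and either PSMA5, the highest core gene by the mean of the 4 libraries, or PSMA4, the highest in 3 of them. Of the 3 ratios drawn, the one without PSMA4 overlaps between groups and the others do not.

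Within the regulatory particle, the summed ATPase ring was 0.221 and 0.199 of the summed lid in IVF and 0.280 and 0.464 in SCNT (p = 0.333, exact permutation test, the smallest possible). The sum over all 49 members was 0.480% and 0.528% of the summed FPKM of the table in IVF and 0.667% and 0.899% in SCNT, also without overlap (p = 0.333, exact permutation test). Without the most abundant member of each role these shares were 0.281% and 0.304% in IVF and 0.352% and 0.370% in SCNT.

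Assembly chaperones bring the rings together and leave the finished particle. Of 7 tested, 0 passed (3.86% of all genes did), and the median log2 difference was 0.87 (all genes 0.39). PSMG1, which with PSMG2 builds the alpha ring, was at 15.8 and 9.89 FPKM in IVF and at 39.1 and 51.3 FPKM in SCNT, a difference of 1.76 ± 0.44 (adjusted p = 0.0579). PSMG2, its partner, was at 9.63 and 8.67 FPKM in IVF and at 8.65 and 10.5 FPKM in SCNT (0.06 ± 0.44, 0.950). The partners thus had unlike values: PSMG1 separated the groups and PSMG2 did not. Both SCNT libraries lay above both IVF libraries in 3 of the 7 chaperone genes, where 46.9% of all genes did so.

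By mean FPKM over all libraries, the other pair of core chaperones, PSMG3 and PSMG4 (6.37 and 3.05), was less abundant than PSMG1 and PSMG2 (29.0 and 9.36). PSMG3 was at 6.50 and 6.24 FPKM in IVF and at 3.31 and 9.42 FPKM in SCNT (−0.14 ± 0.54, adjusted p = 0.889), and PSMG4 differed by 0.94 ± 0.58 (0.297). Both overlapped between groups. Of the chaperones of the regulatory base, PSMD9 (1.08 ± 0.41, 0.120) and PSMD5 (0.87 ± 0.42, 0.192) had higher values in both SCNT libraries, and PSMD10 (0.40 ± 0.46, 0.584) overlapped.

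None of the 4 activators passed, where 3.86% of all genes did. PSME1 was at 2.58 and 2.34 FPKM in IVF and at 1.72 and 7.55 FPKM in SCNT, and PSME2, with which it forms a ring, was at 1.74 and 1.29 FPKM in IVF and at 2.13 and 3.23 FPKM in SCNT. PSME3, the nuclear activator, was at 2.79 and 4.96 FPKM in IVF and at 5.65 and 6.83 FPKM in SCNT. PSME2 and PSME3 had both SCNT values above both IVF values, as did 46.9% of all genes, and PSME1 did not. PSME4, the activator linked to acetylated histones, was the most abundant, at 36 and 41.9 FPKM in IVF and at 39.2 and 22.9 FPKM in SCNT, with a negative difference (−0.36 ± 0.43, adjusted p = 0.602). The 4 adjusted p-values ran from 0.386 to 0.602.

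PSMF1, first described as an inhibitor of the core particle, was at 1.44 and 3.0 FPKM in IVF and at 4.03 and 29.1 FPKM in SCNT. Its difference of 1.98 ± 0.78 (adjusted p = 0.132) rested mostly on SCNT replicate 2; against the IVF mean it was 0.69 in SCNT replicate 1 and 3.27 in SCNT replicate 2. PSMC3IP, which is not a proteasome gene, differed by 1.17 ± 0.54 (0.182).

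The SCNT libraries differed from each other in these genes. SCNT replicate 2 exceeded replicate 1 in 39 of 46 members (84.8%), against 60.7% of all genes, by a median of 0.77 on the log2 scale against 0.25. The median absolute difference between replicates was 0.85 for the members in SCNT and 0.37 in IVF, and 0.63 and 0.30 for all genes. Against the IVF mean, the members' median was 0.48 in SCNT replicate 1 and 1.32 in SCNT replicate 2, where all genes had 0.33 and 0.51. SCNT replicate 1 lay above both IVF libraries in 27 members (58.7%, all genes 57.9%), and SCNT replicate 2 in 39 (84.8%, all genes 59.6%). In the first SCNT library the members' share was therefore close to that of all genes, and in the second it was above it.

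The 7 tested members that were lower in SCNT replicate 2 than in replicate 1 were PSMA4 (by −1.0 log2), PSMD12 (−0.99), PSME4 (−0.75), PSMA2 (−0.55), PSMD3 (−0.32), PSMB1 (−0.21) and PSMA3 (−0.12). The largest differences the other way were those of PSMF1 (2.58) and ADRM1 (1.89). These were picked out after their values were seen.

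**Figure D4:**
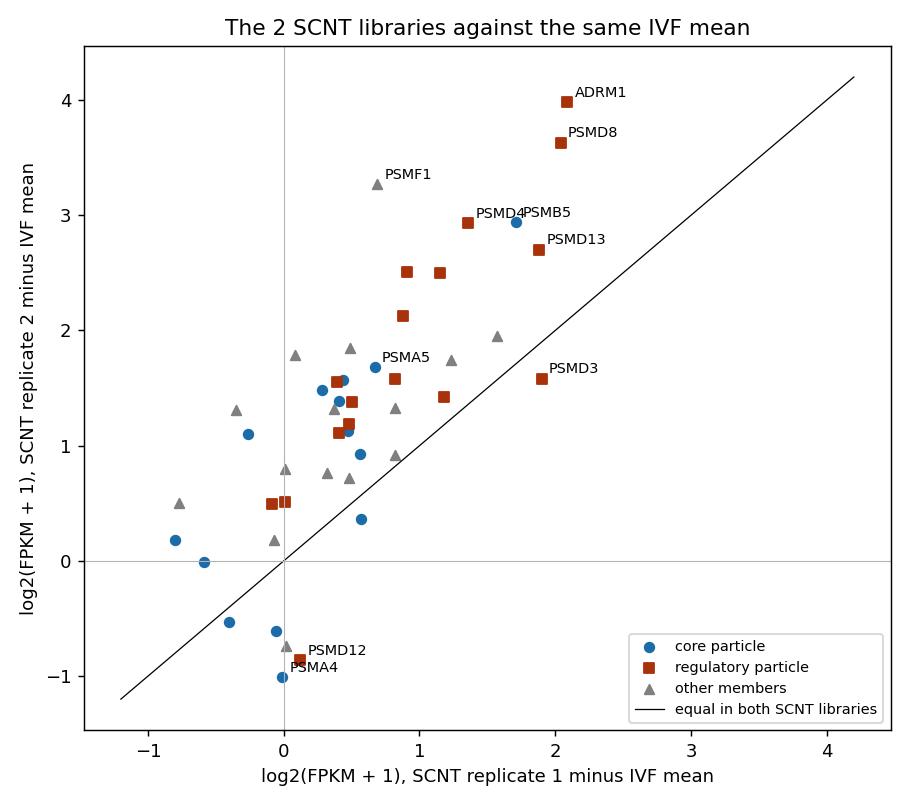
Each tested member's log2(FPKM + 1) in SCNT replicate 1 (x axis) and SCNT replicate 2 (y axis), both minus the same IVF mean, which ties the axes together; the line marks equal values. Points of 39 of 46 members lie above the line, and PSMD3, PSMA4 and PSMD12 are among those below it.

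Genes that work with the proteasome were read from a list of 35 names, chosen with earlier results of these data known, of which 30 were in the table and tested. NSFL1C, a cofactor of the segregase VCP, rose (3.33% of the 30, all genes 3.02%), and 0 fell (all genes 0.844%). The median log2 difference of the 30 was 0.30, below the 0.39 of all genes, and 18 were positive (60.0%, all genes 65.8%). Both SCNT libraries lay above both IVF libraries in 15 (50.0%, all genes 46.9%) and below them in 6 (20%, all genes 17.1%). These shares were near those of all genes and are no result about the list. NSFL1C was at 12.1 and 11.7 FPKM in IVF and at 53.3 and 112 FPKM in SCNT (2.60 ± 0.47, adjusted p = 0.0366). It kept its call after median centring and quantile normalization and lost it with no filter on low values (0.242), without SCNT replicate 2 (0.0647) and without either IVF library (0.0739 and 0.0686). VCP itself, which extracts ubiquitinated proteins, was at 13.7 and 15.4 FPKM in IVF and at 32.6 and 54.8 FPKM in SCNT (1.48 ± 0.44, 0.0748). It passed with the replicate block (0.041), where 15.9% of all genes were called higher. Its log2 difference was 1.85 without SCNT replicate 1 and 1.11 without SCNT replicate 2.

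POMP, the chaperone that completes the core particle, was at 404 and 419 FPKM in IVF and at 239 and 91.5 FPKM in SCNT. NGLY1, the enzyme that removes sugars from proteins and so activates NFE2L1, was at 387 and 407 FPKM in IVF and at 227 and 75.3 FPKM in SCNT. Both SCNT values lay below both IVF values for each gene, and the replicates were close in IVF and far apart in SCNT. The log2 differences of −1.47 ± 0.50 for POMP (adjusted p = 0.0966) and −1.59 ± 0.53 for NGLY1 (0.0938) did not pass. NGLY1 passed with the replicate block (0.0494). Without SCNT replicate 1 the differences were −2.15 for POMP and −2.38 for NGLY1, and without SCNT replicate 2 they were −0.78 and −0.80.

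AKIRIN2, which brings proteasomes into the nucleus, was at 706 and 740.4 FPKM in IVF and at 479 and 405 FPKM in SCNT (−0.71 ± 0.37, adjusted p = 0.227). USP14, a deubiquitinase of the proteasome, was at 43.9 and 44.6 FPKM in IVF and at 34.1 and 20.3 FPKM in SCNT (−0.73 ± 0.43, 0.275). Without SCNT replicate 1 the log2 difference was −0.84 for AKIRIN2 and −1.09 for USP14, and without SCNT replicate 2 it was −0.59 and −0.37. AKIRIN2, USP14 and VCP were singled out after their values were seen. Among the subunits themselves, no tested member had both SCNT values below both IVF values.

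NFE2L1, the transcription factor that raises proteasome genes when the protease is short, was at 0.611 and 1.35 FPKM in IVF and at 2.82 and 4.26 FPKM in SCNT (1.20 ± 0.42, adjusted p = 0.102). NFE2L2, its relative in the response to oxidants, was at 1.49 and 0.741 FPKM in IVF and at 2.84 and 4.99 FPKM in SCNT (1.20 ± 0.44, 0.109). Both were low, and both had SCNT values above the IVF values, as did 46.9% of all genes. Without SCNT replicate 1 their log2 differences were 1.43 and 1.52, and without SCNT replicate 2 they were 0.97 and 0.88. SHFM1, an older symbol of SEM1, the smallest lid subunit, which the naming rule does not take in, was at 52.1 and 44.8 FPKM in IVF and at 38.2 and 49.7 FPKM in SCNT (−0.14 ± 0.40, 0.833).

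UBB, a gene that encodes ubiquitin itself, was at 2763 and 1040.0 FPKM in IVF and at 1523 and 1942 FPKM in SCNT (0.02 ± 0.52, adjusted p = 0.985). The IVF libraries lay on either side of the SCNT libraries. RPS27A (−0.43 ± 0.76, 0.730), which encodes ubiquitin fused to a ribosomal protein, also overlapped between groups.

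**Figure D5:**
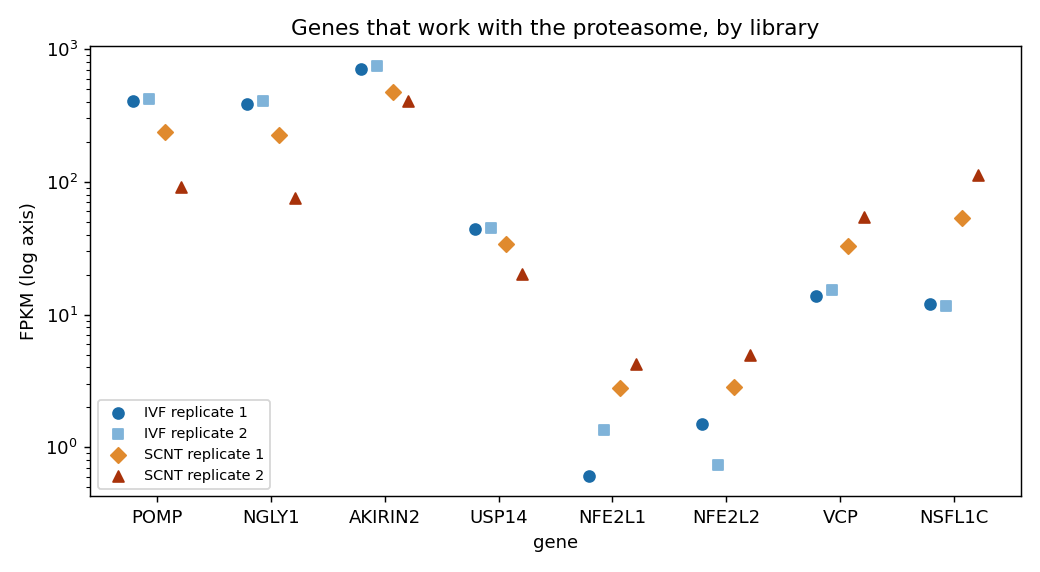
FPKM (log axis) of 8 genes that work with the proteasome, 1 point per library. POMP, NGLY1, AKIRIN2 and USP14 have both SCNT points below both IVF points, and NFE2L1, NFE2L2, VCP and NSFL1C have both above.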

How the data were processed

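Of the 8 libraries, the 4 of 8-cell embryos have messenger RNA values; the lncRNA tables hold no proteasome subunit and were not used. The authors deposited FPKM per gene and library. Tools listed per the submitters' processing notes were fastp, HISAT2 (2.2.1) and HTSeq, with no role or order. For the genome build, annotation, scaling total and strand setting, the status is: not given in the sources used here. Coordinates are therefore left out. Library totals were recovered from FPKM steps of 48 short microRNA genes (lengths from the RefSeq table), all whole within 0.01 read. Members were matched to whole reads within 0.001 read plus 1e-06 per read, at the shortest gene length of 200 bases or more that fitted. Overlapping genes come from the goat RefSeq table (ARS1.2).

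Tests used limma 3.58.1 in R 4.3.3 (lmFit, eBayes with trend, two-sided) on log2(FPKM + 1), over genes that reached 1 FPKM in 2 or more libraries. They were also run on simulated data with an equal spread in all libraries. In the data, SCNT replicates differed more than IVF replicates (median absolute log2 difference 0.63 and 0.30 over all genes). The simulation therefore does not show how the test behaves under this unequal spread. FPKM is not a count, so no count test was run. Ratios were tested by exact permutation over libraries. Values in every library are given for members past the threshold, PSMB5 to PSMB10, the activators, the largest and smallest difference of each role, the 3 most abundant and the untested members; some others were added. Some genes of the other lists are not reported here. Members and lists were chosen with earlier results of these data known. Alternatives were a pseudocount of 0.1, no filter on low values, 3 scalings, no variance trend, a replicate block and leaving out each library; ratios were also taken from medians and without the most abundant genes.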

Additional observations from a re-analysis of the deposited data

How the results depend on the processing

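The number of genes called (398) was 0 with no filter on low values (3661 at an unadjusted p under 0.05), 1327 after rescaling and 46 to 3834 when single libraries were left out. The number of members called (5) was 0 with no filter, 1 after median centring, 8 after rescaling, 0 after quantile normalization, 2 without the variance trend and 0 to 24 when single libraries were left out. With no filter, 20289 genes share the adjustment. Replicate numbers are shared by the groups, but nothing ties equal numbers to a common source, and the replicate differences of the IVF and SCNT pairs correlated at 0.12 across genes; with the replicate number as a block, 1924 genes and 13 members passed. The causes of the other shifts were not tested.

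No difference that changed sign passed the threshold under that alternative. After median centring they were −0.03 for PSMB1, −0.07 for PSMB4, −0.29 for PSMC6, −0.23 for PSMD1, −0.09 for PSMD10, −0.01 for PSME1, −0.44 for PSMG2 and −0.47 for UBB, and after quantile normalization −0.06 for PSMB1, −0.08 for PSMB4, −0.17 for PSMC6, −0.05 for PSME1, −0.01 for PSME2 and −0.39 for PSMG2. When single libraries were left out, the sign changed within these ranges: −0.74 to 0.06 for PSMA2, −1.10 to 0.17 for PSMA3, −0.44 to 1.36 for PSMB1, −0.80 to 0.18 for PSMB2, −0.42 to 1.25 for PSMB4, −0.09 to 0.49 for PSMC6, −0.86 to 0.12 for PSMD12, −0.35 to 1.31 for PSME1, −0.74 to 0.02 for PSME4, −0.07 to 0.18 for PSMG2, −0.77 to 0.50 for PSMG3, −0.33 to 0.04 for SHFM1, −0.68 to 0.72 for UBB, −1.59 to 0.73 for RPS27A and −0.29 to 0.04 for TAP1. The inducible to constitutive ratio, with a log2 difference of −0.04, was −0.30 to 0.23 when single libraries were left out and 0.14 without PSMB9 and PSMB5. The share of the members and the core to regulatory ratio kept their direction in every alternative run, but without PSMA4 and PSMD14 the latter's log2 difference was −0.08, from −0.42, and its groups overlapped. Adjusted p over the alternatives ran from 0.00341 to 0.242 for ADRM1, 0.0101 to 0.242 for PSMB5, 0.00476 to 0.242 for PSMD8, 0.00959 to 0.242 for PSMD13 and 0.0145 to 0.267 for PSMD3. Depth limits PSMB10, PSMC3, PSMB6 and, in IVF, PSMD3 most.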
